A study of Mus musculus with 32 samples.

Results

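The amygdala of mice that lacked *Kdm5c* and carried 1 disrupted copy of *Kmt2a* (DM, double mutant) was compared with the amygdala of mice that lacked *Kdm5c* alone (*Kdm5c*-KO), so that the 2 groups differed by the loss of 1 *Kmt2a* copy on a *Kdm5c*-null background. The members were the 4 DM and the 4 *Kdm5c*-KO amygdala libraries, 8 of the 32 libraries of the series, and every gene of the table except the ERCC spike-in rows. All mice were adult F1 males from 129S1/SvImJ *Kmt2a*+/- fathers and C57BL/6J *Kdm5c*+/- mothers. DM were *Kmt2a*+/- *Kdm5c*-/y, *Kdm5c*-KO were *Kdm5c*-/y with both *Kmt2a* copies, and 4 *Kmt2a*-HET (*Kmt2a*+/-) and 4 wild-type (WT) amygdala libraries entered the fit to estimate the spread. The *Kmt2a* allele came from a floxed line crossed to a ROSA26 Cre-ERT2 line, and each library came from 1 mouse, of which the hippocampus was also sequenced.

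KMT2A is a histone methyltransferase that places methyl groups on histone H3 lysine 4 (H3K4), a mark of active promoters and enhancers, and it acts in a complex with WDR5, RBBP5, ASH2L, DPY30 and menin. KDM5C is an X-linked demethylase that removes this mark and helps to keep germline genes silent in neurons. Loss of one copy of human *KMT2A* causes Wiedemann-Steiner syndrome and mutations of *KDM5C* cause an X-linked intellectual disability, which is why a writer and an eraser of the same mark were combined in these mice.

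The 8 libraries held between 19215503 and 25217180 gene counts and detected between 22094 and 23192 genes. Tissue markers were present in all 8, and the summed normalised count of the 10 amygdala markers was 25391 to 28384 in DM and 19162 to 31285 in *Kdm5c*-KO. In the hippocampus, scaled over both regions, the same 10 summed to 57259 to 66313 in DM and 48629 to 73231 in *Kdm5c*-KO. The list is therefore not specific to the amygdala and does not show that the dissection was accurate. Several libraries stood apart in the content of neighbouring tissue. DM 1 and DM 3 were high in choroid plexus genes, DM 3 was low in leptomeningeal genes, DM 1 to 3 were low in hypothalamic marker genes, and *Kdm5c*-KO 3 was low in striatal genes (the lowest of the 8 libraries for 19 of 20 markers) and high in pituitary genes (the highest for 9 of 10). In bulk tissue, fewer cells of a type and less RNA per cell cannot be told apart.

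**Figure D1:**
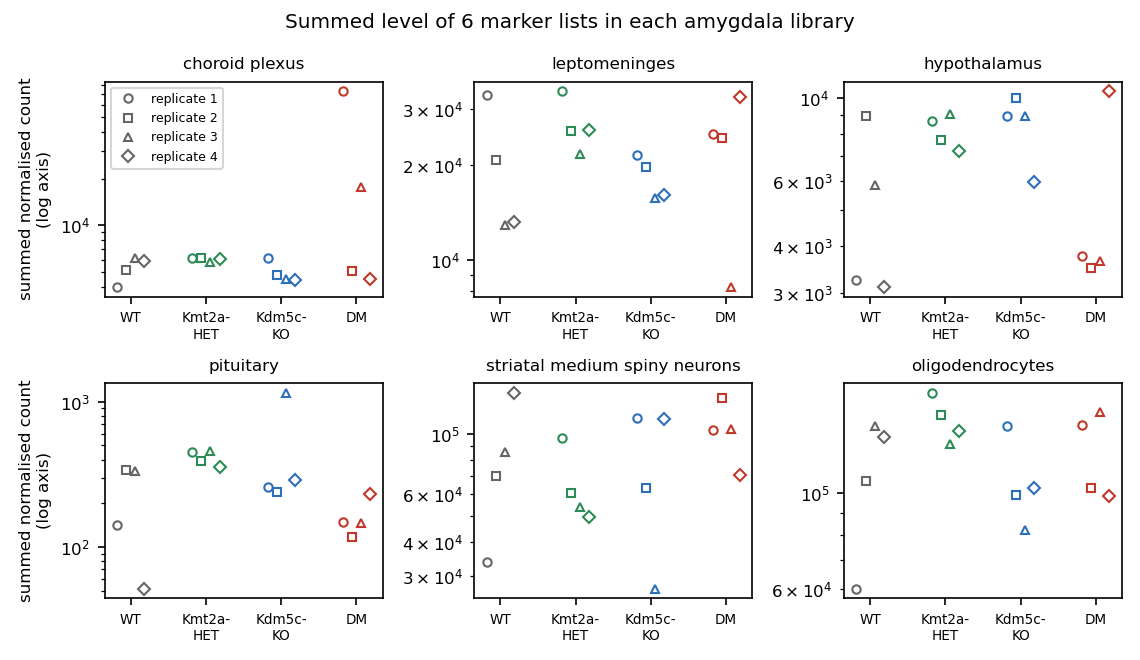
Summed normalised count (log axis) of 6 lists of marker genes in each of the 16 amygdala libraries, by genotype; each symbol is 1 library and the symbol shape gives its replicate number. The choroid plexus sum was 73176 in DM 1 and 17653 in DM 3 against 4462 to 6128 in *Kdm5c*-KO, the pituitary sum was 1153 in *Kdm5c*-KO 3, and the hypothalamic sum was 3483 to 3755 in DM 1 to 3 against 5968 to 10043 in *Kdm5c*-KO and 10441 in DM 4.

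The gene-level counts of the targeted genes did not separate the genotypes compared here. *Kmt2a* (chr9:44803355-44881296, minus strand, mm10) had normalised counts of 3008, 5371, 4325 and 3987 in DM 1 to 4 and of 3085, 4720, 5452 and 4509 in *Kdm5c*-KO 1 to 4. The groups overlapped, and the difference was -0.09 ± 0.24 (log2, SE), with a 95% interval from -0.56 to 0.38. Lower values were found in replicate 1 of both groups. *Kdm5c* (chrX:152233020-152274535, plus strand) had 1284 ± 54.0 in DM and 1300 ± 89.7 in *Kdm5c*-KO (SD, n = 4 each), against 1620 ± 329 in WT, and the difference between the 2 groups was -0.02 ± 0.12 (log2, SE). Reads over the targeted exons were not analysed here. *Kmt2a*-201, the form with the most counts, had 3033 to 4345 normalised counts in DM and 2965 to 4369 in *Kdm5c*-KO, and *Kdm5c*-203 had 666 to 811 and 555 to 960.

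Of 30355 genes tested, 1 passed the adjusted p threshold of 0.1 (DESeq2 Wald test, 0.00329% of genes), and it was higher in DM. Without adjustment, 694 genes had p under 0.05, of which 400 were higher in DM (1.32% of genes) and 294 lower (0.969%). edgeR's quasi-likelihood test called 0 of 17538 genes, with 557 at unadjusted p under 0.05. When libraries were scaled to the ERCC spike-in in place of gene counts, the median log2 difference over genes with a mean count of at least 10 shifted by -0.26, the share of genes higher in DM among those with p under 0.05 went from 57.6% to 28.9%, and 0 genes were called. The differences given here are relative to the bulk of genes.

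**Figure D2:**
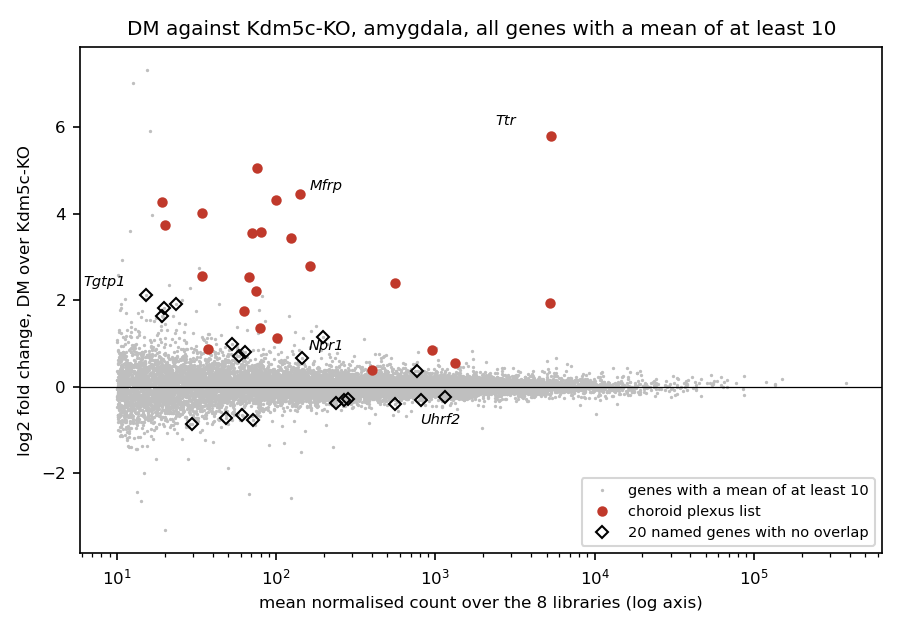
Log2 fold change of DM over *Kdm5c*-KO against the mean normalised count over the 8 libraries (log axis) for the 16674 genes with a mean of at least 10; filled circles are the choroid plexus list and open diamonds the 20 named genes whose groups did not overlap. Most genes lay close to 0, and the 23 choroid plexus genes lay above it, with *Ttr* at 5.81 and *Mfrp* at 4.45.

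The called gene was *Mfrp* (chr9:44101729-44109187, plus strand), which encodes a membrane frizzled-related protein of retinal pigment epithelium, ciliary body and choroid plexus. Its normalised counts were 835, 24.6, 203 and 20.5 in DM 1 to 4 and 22.6, 6.86, 9.66 and 10.6 in *Kdm5c*-KO 1 to 4. DM 1 and DM 3 were far above all others, and DM 2 and DM 4 lay within or just above the range of *Kdm5c*-KO. The log2 fold change was 4.45 ± 0.92 (SE, adjusted p = 0.035, DESeq2). Without DM 1 and DM 3 it was 0.88 ± 0.57 with an adjusted p of 1 (DESeq2). *Mfrp* was also not called when DM 1, DM 3 or *Kdm5c*-KO 2, 3 or 4 was left out singly, or when the fit held the 8 libraries alone. The gene shares its locus and strand with *C1qtnf5*, which had 401 to 757 counts in DM and 381 to 606 in *Kdm5c*-KO, so the division of reads between them is uncertain. The promoter window of *Mfrp* from RefSeq (GRCm38.p6, chr9:44101520-44101819, plus strand, around the annotated start) is shown because this was the gene called. It held none of the 3 motifs searched, which are given with the germline genes.

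*Mfrp*: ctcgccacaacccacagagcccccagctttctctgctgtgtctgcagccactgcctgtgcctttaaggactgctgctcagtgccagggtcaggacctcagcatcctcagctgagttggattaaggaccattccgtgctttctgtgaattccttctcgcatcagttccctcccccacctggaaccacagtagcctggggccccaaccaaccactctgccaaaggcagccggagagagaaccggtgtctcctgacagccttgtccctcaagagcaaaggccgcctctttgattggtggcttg

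The other choroid plexus genes moved in the same libraries. The choroid plexus is the secretory epithelium of the brain ventricles that makes cerebrospinal fluid. All 23 genes of its list were measured, 23 of 23 were higher in DM on average with a median log2 difference of 2.55 (0 over all genes tested), 1 was called and 21 had an unadjusted p under 0.05. Without DM 4, 12 of the 23 were called, where 31 genes were called in all. Without DM 3, 0 of the 23 were called, where 3 genes were called in all. In that fit 9 of the 23 had an unadjusted p under 0.05, against 529 genes in all. In 23 of 23, both DM 1 and DM 3 exceeded all 4 *Kdm5c*-KO libraries, whereas DM 2 did so for 3 and DM 4 for 2. DM 1 was the highest of the 16 amygdala libraries for all 23. Shares of all genes with these patterns were not counted.

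*Ttr*, which encodes the thyroxine carrier transthyretin, had 35473, 99.3, 5985 and 30.2 normalised counts in DM 1 to 4 and 606, 74.5, 24.1 and 36.0 in *Kdm5c*-KO 1 to 4. DM 1 was the highest, and DM 4 lay below 3 of the 4 *Kdm5c*-KO libraries. *Kcnj13*, an inward-rectifier potassium channel of the epithelium, had 328, 42.8, 71.6 and 18.3 in DM and 27.3, 21.6, 12.6 and 17.97 in *Kdm5c*-KO. *Slc4a5*, a sodium bicarbonate cotransporter, had 495, 1.82, 87.5 and 4.31 in DM against 3.56 to 5.29 in *Kdm5c*-KO. DM 2 and DM 4 of this gene lay below or within the *Kdm5c*-KO range. *Enpp2*, which encodes the secreted lysophospholipase autotaxin, had 22424, 2216, 6542 and 1977 in DM against 1917 to 2526. *Aqp1*, the water channel, and *Cldn2*, a tight junction claudin, had 487 and 446 in DM 1 and 14 and 7.54 in DM 4. *Kl*, encoding klotho, had 2735 in DM 1 and 138 in DM 4, below the 167 to 185 of *Kdm5c*-KO.

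Without DM 1 and DM 3, 3 of 30052 genes were called in all (0.00998%), 0 of the 23 had p under 0.05, 8 were higher and 15 lower in DM, and the median was -0.04. In the hippocampus of the same mice the summed level of the list was 4468, 54181, 4379 and 59136 in DM 1 to 4, and 171836, 4489, 22620 and 39724 in *Kdm5c*-KO 1 to 4. DM 1 and DM 3, the high libraries in the amygdala, were the low ones in the hippocampus. There, 23 of 23 genes were lower in DM, with a median of -0.64 and 0 called, where 2 of 29841 genes were called in all (0.0067%). In the other amygdala groups the sum was 3994 to 6176 in WT and 5769 to 6167 in *Kmt2a*-HET. The part of choroid plexus tissue in the dissection in these values was not tested.

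**Figure D3:**
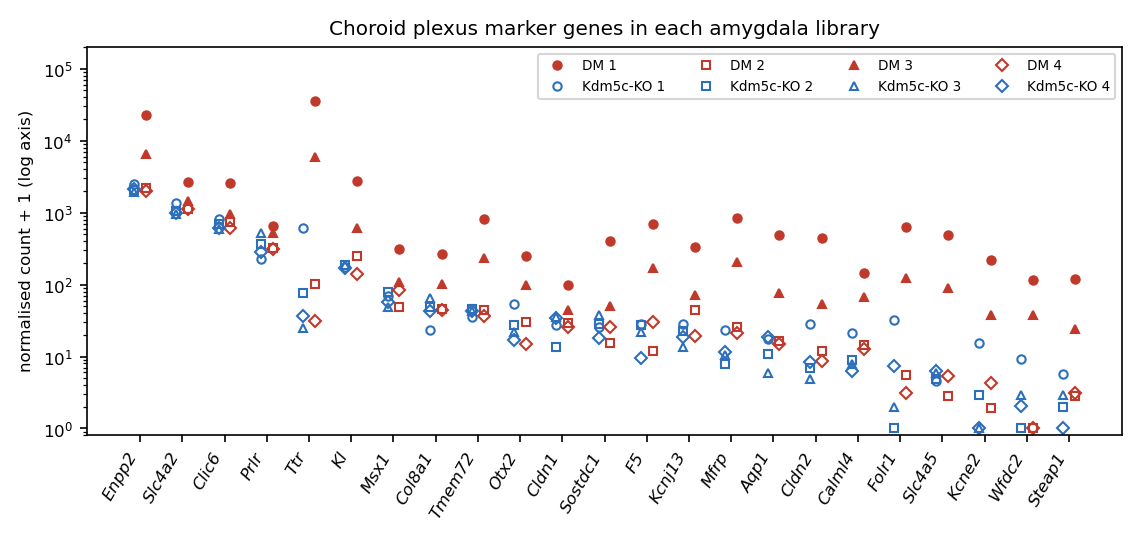
Normalised count plus 1 (log axis) of the 23 choroid plexus marker genes in each of the 8 amygdala libraries, DM in red and *Kdm5c*-KO in blue; filled symbols are DM 1 and DM 3. The filled symbols lie above the 4 *Kdm5c*-KO libraries for all 23 genes, and the open red symbols lie among them for most.

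Genes of the leptomeninges, the connective tissue covering the brain, followed another set of libraries. *Col1a2*, a fibrillar collagen chain, had 643, 745, 287 and 740 normalised counts in DM 1 to 4 and 458, 374, 412 and 430 in *Kdm5c*-KO 1 to 4. DM 3 was the lowest of the 8 and the other DM libraries were the 3 highest, and the same held for *Slc13a4*, a sulfate transporter, with 954, 571, 136 and 770 against 324 to 405. *Ogn*, encoding the proteoglycan osteoglycin, had 91.5, 125, 27.9 and 151 against 48.6 to 59.4. DM 3 was the lowest of the 8 libraries for 12 of the 15 genes of the list, and for 6 of 15 the other 3 DM libraries exceeded all *Kdm5c*-KO libraries. The share of all genes with these patterns was not counted, so they are not shown to be particular to this list. Over the list 15 of 15 were higher in DM, with a median of 0.40, 3 at unadjusted p under 0.05 and 0 called. Without DM 4, 11 were higher and 4 lower, with a median of 0.13 and 0 called. Without DM 3 the median was 0.64 and 2 of them were called, *Col1a2* at 0.76 and *Slc13a4* at 1.06 (log2, adjusted p = 0.00051 and 0.00085, DESeq2). The third gene called in that fit was *Cdh1*, encoding E-cadherin, at 1.51, with 59.0, 84.7, 6.96 and 62.5 in DM and 20.6 to 28.6 in *Kdm5c*-KO. *Cdh1* was named after its values were seen. Without DM 1 and DM 3 the list median was 0.73, with 13 at unadjusted p under 0.05 and 1 called. *Col1a2* at 0.83 and *Cdh1* at 1.61 were among the 3 genes called in that fit (log2, adjusted p = 0.0021 for both, DESeq2). In the hippocampus the direction was the opposite, with 13 of the 15 listed genes lower in DM, a median of -0.34 and 0 called. The part of meningeal tissue in these values was not tested.

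Markers of the other cell types and regions that the dissection could hold gave 0 called genes. Of 20 genes of striatal medium spiny neurons 18 were higher in DM, with a median of 0.36, which was 0.06 without *Kdm5c*-KO 3. Of 19 genes of ependyma, the ciliated lining of the ventricles, 17 were higher with a median of 0.30 and 3 at unadjusted p under 0.05, while without DM 1 and DM 3 15 were lower. Its median was 0.19 without DM 3 and 0.52 without DM 4. Medians were 0.08 over 12 astrocyte genes, -0.01 over 12 microglial genes, 0.11 over 12 endothelial genes, 0.12 over 7 blood genes, 0.13 over 10 hippocampal genes and 0.42 over 10 thalamic genes, with 0 genes at p under 0.05 except *Aif1*, a microglial gene, on the lower side. Without DM 1 and DM 3 the thalamic median was -0.03, with 5 higher and 5 lower, the hippocampal median was 0.02 and the blood median -0.06. Without DM 3 alone the thalamic median was 0.23, the blood median -0.07 and the endothelial median 0.04. With ERCC scaling, which shifted the median of all genes by -0.26 and the lists by differing amounts, the medians that turned negative included those of the striatal list at -0.05, astrocytes at -0.18, oligodendrocytes at -0.04, endothelium at -0.17, blood at -0.10, hippocampal genes at -0.07, activity-induced genes at -0.07 and mitochondrially encoded genes at -0.17.

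Genes whose 4 DM libraries all lay on one side of the 4 *Kdm5c*-KO libraries were examined next. Among the 16674 genes with a mean of at least 10 counts, 152 were higher in every DM library (0.912%) and 154 were lower (0.924%). The 10 with the smallest p in each direction were taken by rule, and 0 of these 20 passed the adjusted threshold with DESeq2 or with edgeR. All 20 had an unadjusted p under 0.05 by both tools. The choice by p fixes this for DESeq2, and edgeR used the same counts, so its values are not independent of the choice. Of the 20, *Npr1*, *Tgtp1* and *Uhrf2* were called when a term for replicate 1 was added, at log2 differences of 0.66, 2.05 and -0.31 (adjusted p = 0.036, 0.051 and 0.061, DESeq2). That fit called 99 genes in all, 82 of them with means under 10 in both groups. edgeR with a replicate block called 0 genes. The 20 were chosen on the same counts, so these calls are no independent evidence for the genes.

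*Npr1*, the guanylyl cyclase receptor for atrial natriuretic peptide, was the gene among them with the smallest p. Its normalised counts were 224, 166, 152 and 165 in DM 1 to 4 and 119.9, 118, 97.5 and 113 in *Kdm5c*-KO 1 to 4. All 4 DM libraries lay above all 4 *Kdm5c*-KO libraries, DM 1 farthest, and the log2 difference was 0.66 ± 0.16 (SE, adjusted p = 0.27, DESeq2). For *Npr1*, *Kmt2a*-HET had 142 ± 9.92 and WT 112.5 ± 15.7 (SD, n = 4 each). Without DM 1 and DM 3 the difference was 0.56 ± 0.18. In the hippocampus the direction was the opposite, at -0.31, with 193 ± 57.3 in DM and 239 ± 47.4 in *Kdm5c*-KO.

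*Lepr*, the leptin receptor, had 81.7, 62.9, 66.7 and 70.0 in DM and 35.6, 32.4, 45.4 and 27.5 in *Kdm5c*-KO. The log2 difference was 0.99 ± 0.27 (SE, adjusted p = 0.64, DESeq2), and 0.91 ± 0.35 without DM 1 and DM 3. In the other groups *Lepr* had 63.1 ± 10.8 in *Kmt2a*-HET and 46.3 ± 18.3 in WT (SD, n = 4 each).

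*Tgtp1* and *Gbp9*, 2 of the interferon-inducible GTPases of cell-autonomous immunity, were both in the higher set. *Tgtp1* had 46.3, 9.11, 25.9 and 18.3 in DM and 5.94, 5.88, 6.76 and 4.23 in *Kdm5c*-KO, a log2 difference of 2.12 ± 0.52 (SE, adjusted p = 0.27, DESeq2). DM 1 was highest and DM 2 close to *Kdm5c*-KO, and the WT level of 14.6 ± 3.03 lay between the 2 groups. *Gbp9* had 62.0, 75.6, 82.6 and 72.1 in DM and 32.1, 46.1, 49.3 and 50.8 in *Kdm5c*-KO, a log2 difference of 0.71 ± 0.21 (SE), with 58.7 ± 10.1 in WT. Of 12 other members of these families, chosen after their values were seen, *Iigp1*, *Gbp4*, *Gbp2* and *Tgtp2* had unadjusted p under 0.05 and higher values in DM, with log2 differences of 1.52, 1.13, 0.56 and 1.54 and 0 called. The other 8 (*Gbp3*, *Gbp5*, *Gbp6*, *Gbp7*, *Gbp8*, *Irgm1*, *Irgm2* and *Igtp*) did not, and *Gbp6* at -0.30 and *Gbp7* at -0.19 were on the lower side. *Iigp1* had 14.8 to 31.0 in DM and 1.93 to 16.6 in *Kdm5c*-KO, while *Irgm1* had 92.0 to 160 and 92.0 to 152 and *Igtp* 34.6 to 65.0 and 50 to 58.2. *Tgtp1* has a near-identical copy, *Tgtp2*, at 7.87 to 40.9 in DM and 0.97 to 14.3 in *Kdm5c*-KO, and *Gbp9* overlaps *Gbp4* and *Gbp8* on its strand, so the division of reads among copies is uncertain.

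*Cpt1a*, the liver-type carnitine palmitoyltransferase that admits fatty acids to mitochondria, had 984, 811, 941 and 737 in DM and 711, 619, 732 and 625 in *Kdm5c*-KO. The gap between the lowest DM and the highest *Kdm5c*-KO library was small beside the spread, and the log2 difference was 0.37 ± 0.11 (SE), or 0.21 ± 0.13 without DM 1 and DM 3. The other 5 higher genes were *Gm9780*, *Rbm47*, *Zfp97*, *Col4a3* and *Abca4*. *Rbm47* and *Abca4* had their highest DM value in DM 1, at 92.5 and 574 against 15.5 to 22.9 and 143 to 211 in the other DM libraries.

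On the lower side, *Uhrf2*, a RING finger ubiquitin ligase that binds hydroxymethylated DNA, had 724, 716, 764 and 678 in DM 1 to 4 and 863, 850, 992 and 871 in *Kdm5c*-KO 1 to 4. Within DM the values were close together, and all lay below *Kdm5c*-KO. The log2 difference was -0.31 ± 0.08 (SE, adjusted p = 0.32, DESeq2), a level 1.24-fold higher in *Kdm5c*-KO. WT had 796 ± 44.2 and *Kmt2a*-HET 826 ± 44.3, between the 2 groups, and the difference was -0.36 ± 0.10 without DM 1 and DM 3 and -0.04 in the hippocampus. *Ufd1*, a partner of the segregase VCP in protein degradation, had 992 to 1146 in DM and 1184 to 1288 in *Kdm5c*-KO, a log2 difference of -0.24 ± 0.08 (SE). *Bbs7*, a subunit of the BBSome of primary cilia, had 227 to 268 and 298 to 318, a log2 difference of -0.29 ± 0.10 (SE). *Mirg*, a long noncoding RNA of the imprinted Dlk1-Dio3 region that holds many microRNAs, had 405 to 549 and 588 to 693. The other 6 lower genes were *Cthrc1*, *BC022960*, *Fbxl7*, *Stambpl1*, *Adam8* and *Sh2b2*, with log2 differences from -0.86 in *Fbxl7* to -0.31 in *Stambpl1*.

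**Figure D4:**
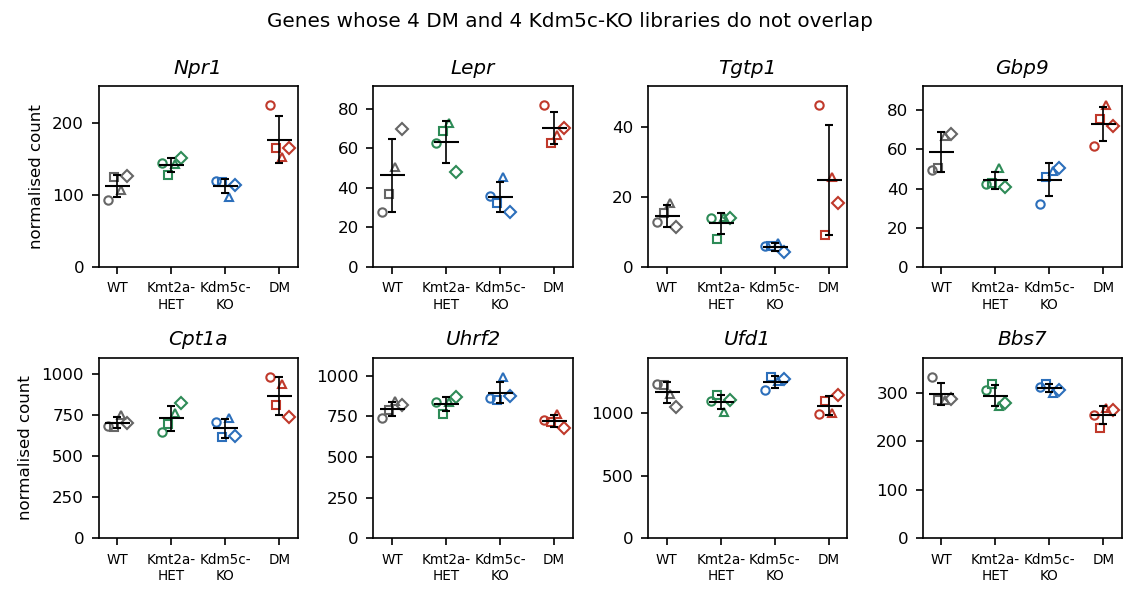
Normalised counts of 8 genes whose 4 DM and 4 *Kdm5c*-KO libraries did not overlap, in the 4 genotypes; symbols are libraries, the horizontal mark is the mean and the bar 1 SD (n = 4). For *Uhrf2* and *Tgtp1* the WT mean lay between those of *Kdm5c*-KO and DM, and for *Npr1* the WT mean was 112.5 and the *Kdm5c*-KO mean 112.1.

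A second question was whether the genes that differ with *Kdm5c* loss did so to the same extent when 1 *Kmt2a* copy was also missing. Between the 8 libraries without *Kdm5c* and the 8 with it, 336 of 20345 genes differed (1.65%, DESeq2 adjusted p under 0.1), 280 higher and 56 lower without *Kdm5c*. This list shares its libraries with the comparison. Pooling DM with *Kdm5c*-KO favours genes on which these 8 libraries agree, but it also admits genes that are high or low mainly in either group. The list served only to choose genes, and the values over it are a description. Of the 280 raised genes 136 were higher and 144 lower in DM than in *Kdm5c*-KO, with a median log2 difference of -0.01, 13 higher and 2 lower at unadjusted p under 0.05, and 0 were called. Of the 56 lowered genes 34 were higher and 22 lower in DM, with a median of 0.06, 0 higher and 3 lower at unadjusted p under 0.05, and 0 were called. For 252 of the 322 genes of the list with a mean of at least 10 (78.3%) the 95% interval of the difference lay within a log2 difference of 1 in either direction, against 84.7% of all genes with a mean of at least 10.

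The 8 leading genes of this list are shown in all genotypes. *Tex14*, which encodes a protein of the germ cell intercellular bridge, had 119, 137, 125 and 162 normalised counts in DM 1 to 4 and 128, 116, 147 and 88.8 in *Kdm5c*-KO 1 to 4, with 12.1 ± 3.92 in WT and 14.5 ± 8.34 in *Kmt2a*-HET. The 2 groups without *Kdm5c* overlapped, with DM 4 above and *Kdm5c*-KO 4 below the range of the other group, and their log2 difference was 0.18, with a 95% interval from -0.31 to 0.66. *Zar1*, a maternal-effect gene of the oocyte, had 122, 68.3, 81.6 and 94.8 in DM and 110, 124, 117 and 107 in *Kdm5c*-KO, with 19.7 ± 9.86 in WT. Here 3 of 4 DM libraries lay below all *Kdm5c*-KO libraries, at a log2 difference of -0.32 with an interval from -0.84 to 0.20. *Pnmt*, the enzyme that makes adrenaline from noradrenaline, had 109, 108, 88.5 and 74.3 in DM and 96.2, 73.5, 31.9 and 63.4 in *Kdm5c*-KO, with 5.18 ± 1.5 in WT, and its log2 difference was 0.53 ± 0.32 (SE).

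*Rps4l*, a retrotransposed copy of a ribosomal protein gene, had 1622 ± 328 in DM, 1564 ± 149 in *Kdm5c*-KO and 459 ± 192 in WT (SD, n = 4 each), with the caveat that it can share reads with its parent gene. *Pgam2*, the muscle phosphoglycerate mutase, had 412 ± 67.3, 434 ± 72.6 and 122 ± 64.1 in the same order, and the noncoding *Gm10432* had 243 ± 11.3, 238 ± 44.4 and 95.8 ± 24.8. *BC024139* and *Scarf2*, a scavenger receptor of endothelial origin, had lower means in DM than in *Kdm5c*-KO, 139 ± 13.8 against 169 ± 31.7 and 435 ± 140 against 531 ± 109, and neither difference passed the test. Against WT, the log2 changes for *Tex14* were 3.32 in *Kdm5c*-KO and 3.50 in DM, for *Zar1* 2.55 and 2.23, and for *Pnmt* 3.66 and 4.19. These 2 contrasts share the WT libraries.

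**Figure D5:**
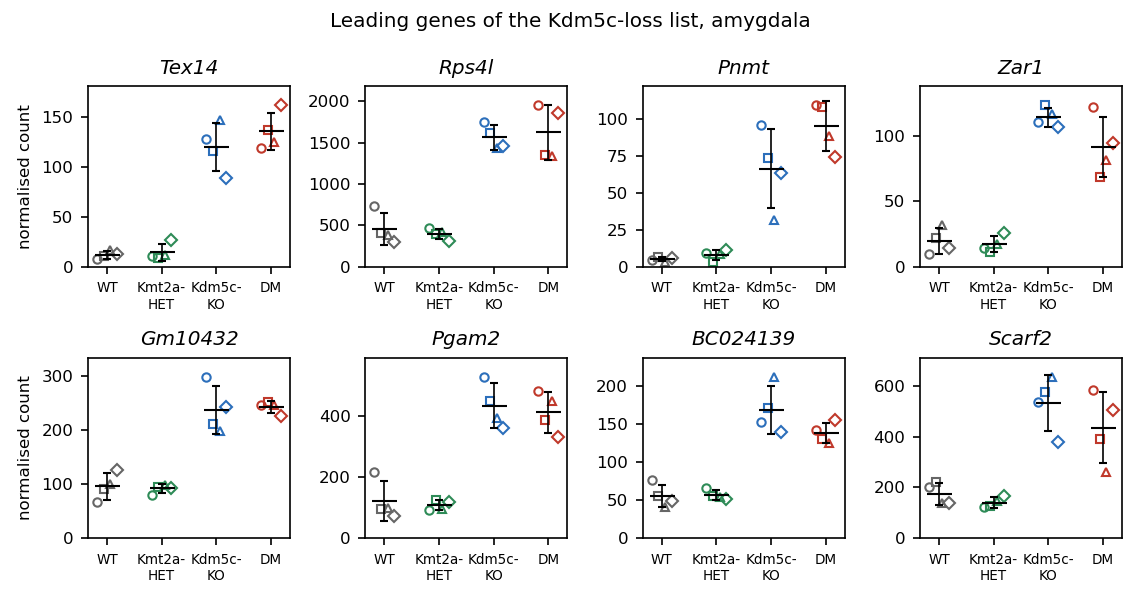
Normalised counts of the 8 leading genes of the *Kdm5c*-loss list in the 4 genotypes; symbols are libraries, the horizontal mark is the mean and the bar 1 SD (n = 4). Mean *Tex14* counts were 12.1 for WT, 119.9 for *Kdm5c*-KO and 136 for DM, and the DM and *Kdm5c*-KO libraries overlapped in all 8 panels.

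Among the 18 genes of this list with unadjusted p under 0.05 between DM and *Kdm5c*-KO, 13 were raised genes with higher values in DM. They included *Kl* at 2.40 and *Tmem72* at 2.80, both on the choroid plexus list. *Kl* had 934 in DM, 177 in *Kdm5c*-KO and 129 in WT on average. *Abca4*, *Stra6*, *Lbp* and *Slc16a8* were also among the 13. A gene high mainly in DM, as *Kl* was, can enter the pooled list through DM. The count of 13 is therefore not independent of how the list was chosen. Without the cell type markers, 331 genes remained, with 165 higher and 166 lower in DM.

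Germline genes are silenced in somatic cells by the PRC1.6 complex, whose MGA-MAX and E2F6 subunits bind the E-box CACGTG and E2F-like motifs. Of 40 listed germline genes 35 could be tested, 16 were higher and 19 lower in DM, the median was -0.06, and 0 were called. The direction turned without *Kdm5c*-KO 3, with 19 higher, 16 lower and a median of 0.12, and the median was -0.10 without DM 3, -0.13 without DM 4 and -0.21 without DM 1 and DM 3. Of the list, 8 were also in the *Kdm5c*-loss list, namely *Tex14*, *Zar1*, *D1Pas1*, *Ccnb1ip1*, *Cyct*, *Sycp3*, *Naa11* and *Ddx4*. *Cyct*, the testis cytochrome c, had 9.95 to 17.7 in DM and 6.86 to 20.2 in *Kdm5c*-KO. *Ddx4*, the germ cell RNA helicase, had 61.1 to 86.6 and 59.2 to 81.4, and *Sycp3*, a component of the synaptonemal complex, had 30.1 to 62.5 and 22.2 to 41.6. The groups overlapped for all 3. *Sycp2*, its partner in the same complex, was the member with the smallest p, at 14.8, 17.3, 15.9 and 20.5 in DM and 21.4, 33.3, 22.2 and 45.5 in *Kdm5c*-KO, a log2 difference of -0.84 ± 0.37 (SE, adjusted p = 1, DESeq2).

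Promoter windows from RefSeq (GRCm38.p6) of 3 of these genes are shown, since they are raised in both groups without *Kdm5c*. The search covered both strands for the E-box CACGTG and for the E2F-like motifs TTCCCGC (first form) and TCCCGCC (second form), which overlap each other by 6 bases, and capitals mark every match. *Tex14* is at chr11:87404815-87405114 on the plus strand, *Sycp3* at chr10:88459337-88459636 on the plus strand and *Ddx4* at chr13:112652261-112652560 on the minus strand.

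*Tex14*: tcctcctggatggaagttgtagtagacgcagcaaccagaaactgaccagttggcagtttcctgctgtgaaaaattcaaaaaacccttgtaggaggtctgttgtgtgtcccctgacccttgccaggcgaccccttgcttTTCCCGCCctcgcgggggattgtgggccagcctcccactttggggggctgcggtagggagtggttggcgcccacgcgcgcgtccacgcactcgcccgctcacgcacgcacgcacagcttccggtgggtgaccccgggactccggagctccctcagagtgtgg

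*Sycp3*: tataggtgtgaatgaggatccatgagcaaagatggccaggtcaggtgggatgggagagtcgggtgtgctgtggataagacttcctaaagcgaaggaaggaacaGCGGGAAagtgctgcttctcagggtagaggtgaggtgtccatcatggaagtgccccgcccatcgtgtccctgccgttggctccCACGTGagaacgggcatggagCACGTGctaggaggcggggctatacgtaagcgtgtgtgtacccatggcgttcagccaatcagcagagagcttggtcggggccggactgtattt

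*Ddx4*: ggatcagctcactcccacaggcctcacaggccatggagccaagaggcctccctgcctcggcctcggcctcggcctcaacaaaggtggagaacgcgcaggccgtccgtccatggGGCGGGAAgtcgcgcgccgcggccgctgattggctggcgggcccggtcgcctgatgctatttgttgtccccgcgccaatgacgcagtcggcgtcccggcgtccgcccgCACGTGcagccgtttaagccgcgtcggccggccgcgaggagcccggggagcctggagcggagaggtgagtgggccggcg

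The *Tex14* window held an E2F-like match and no CACGTG, and the *Sycp3* and *Ddx4* windows held both. Over the 40 windows of the germline list 14 (35.0%) held CACGTG and 14 (35.0%) an E2F-like match, against 7.15% and 13.3% of 32851 windows of all genes. The 246 windows of the genes raised without *Kdm5c* held them at 9.35% and 15.5%. The windows of *Zar1*, *Cyct* and *D1Pas1* held neither. These are matches of letters and not sites shown to be bound.

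No gene of the H3K4 machinery passed the test. Of 19 methyltransferase and cofactor genes 5 were higher and 14 lower in DM, with a median of -0.08 and 0 at unadjusted p under 0.05. Without *Kdm5c*-KO 3 they were 9 and 10, with a median of -0.02, and without DM 1 and DM 3 they were 10 and 9, with a median of 0.004. The median was -0.04 without DM 3. Of 13 demethylase and cofactor genes 7 were higher and 6 lower, with a median of 0.03, also with 0 at p under 0.05. *Kmt2d*, the enhancer methyltransferase mutated in Kabuki syndrome, had 4091 to 7293 in DM and 4265 to 8332 in *Kdm5c*-KO. *Men1*, which encodes menin and tethers KMT2A to chromatin, had 1546 to 1810 and 1533 to 2049. *Kdm5a* and *Kdm5b*, the paralogs of *Kdm5c*, had 934 to 1323 against 831 to 1169 and 1412 to 1848 against 1424 to 1977. The Y-linked paralog *Kdm5d* had 448 to 670 and 458 to 601. None of these pairs of ranges were apart. Among 20 genes of PRC1.6 and other germline silencers, *E2f6* alone had p under 0.05. It had 660, 645, 725 and 705 in DM and 787, 805, 765 and 804 in *Kdm5c*-KO, with no overlap, and a log2 difference of -0.21 ± 0.09 (SE, adjusted p = 1, DESeq2). WT had 714 ± 54.0 and *Kmt2a*-HET 834 ± 74.9. Of the KMT2A targets *Hox*, *Meis* and *Pbx*, 17 genes could be tested and 0 had p under 0.05, with 5 higher and 8 lower, or 7 and 6 without DM 3. Of the 17, 10, all *Hox* genes, had at most 10 counts in every library of both groups.

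No gene of the synaptic lists was called. Of 34 postsynaptic density and spine genes 20 were higher and 14 lower in DM, the median was 0.02, the log2 differences ran from -0.12 to 0.22, and for 34 of 34 the 95% interval lay within 1 in either direction. *Camk2a*, the kinase of synaptic plasticity, had 59115 to 68922 in DM and 53591 to 74727 in *Kdm5c*-KO, *Dlg4*, which encodes PSD-95, had 19672 to 21327 and 20083 to 21940, and *Shank1*, a scaffold of the density, had 18986 to 23159 and 16164 to 29808. Among 20 ionotropic glutamate receptor genes *Grik1* had p under 0.05, with 310 to 376 in DM and 311 to 504 in *Kdm5c*-KO, and the median was -0.01, with 10 higher and 10 lower, or 0.03 with 14 higher without *Kdm5c*-KO 3. Among 19 genes of GABA-A receptors and GABA synthesis the median was -0.03 and 0 had p under 0.05, and the direction turned without *Kdm5c*-KO 3, with 13 higher, 6 lower and a median of 0.04. The log2 differences of this list ran from -0.57 to 0.33. The 95% interval lay within 1 in either direction for 16 of these 19 genes (84.2%) and for 19 of the 20 glutamate receptor genes. The share was 84.7% over all genes with a mean of at least 10.

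Activity-induced genes varied with the library. For 13 of 20, the 3 highest of the 8 libraries were DM 1, DM 3 and *Kdm5c*-KO 1, a pattern not counted over all genes. The summed list was highest in replicate 1 of each amygdala genotype, at 27313 in DM, 24631 in *Kdm5c*-KO, 26432 in *Kmt2a*-HET and 29811 in WT. *Fos*, the immediate early transcription factor, had 461, 58.3, 345 and 77.5 in DM and 331, 71.6, 106 and 88.8 in *Kdm5c*-KO, and *Arc*, which encodes a regulator of synaptic AMPA receptors, had 2138, 570, 2088 and 408 against 1100, 476, 518 and 727. The groups overlapped for both. Over the list 12 were higher and 8 lower in DM, with a median of 0.19, and *Dusp1* and *Nr4a2* had unadjusted p under 0.05. *Nr4a2*, an orphan nuclear receptor, did not overlap, with 401, 354, 490 and 280 against 125, 272, 269 and 269. Without DM 1 and DM 3 the list turned, with 2 higher, 18 lower and a median of -0.38, and without DM 4 the median was 0.32. All 12 oligodendrocyte genes were higher in DM, with a median of 0.26 and 0 at p under 0.05, but without DM 1 and DM 3 10 of 12 were lower, with a median of -0.05. The median was 0.13 without DM 3 and 0.15 without *Kdm5c*-KO 3. Of 13 mitochondrially encoded genes 11 were higher, with a median of 0.10 (0.01 without DM 1 and DM 3, 0.19 without DM 4), and with *mt-Nd4l* alone under p of 0.05, at 5809, 6834, 7772 and 3797 against 3500 to 4750.

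Marker genes of the hypothalamus, which were neuropeptide genes and the transcription factors *Sim1*, *Otp* and *Nkx2-1*, tended to lower values in DM. Of 15, 14 were lower, with a median of -0.59, 3 at unadjusted p under 0.05 and 0 called. The median was -1.05 with 8 at p under 0.05 without DM 4, and -0.28 with 4 of 15 higher without *Kdm5c*-KO 3. *Avp*, which encodes vasopressin, had 1129, 851, 813 and 2607 in DM and 3512, 3250, 1823 and 1808 in *Kdm5c*-KO, and *Oxt*, which encodes oxytocin, had 970, 1167, 1168 and 4796 against 1950 to 3985. DM 4 lay within or above the *Kdm5c*-KO range for both, while DM 1 to 3 lay below it. *Cartpt*, the precursor of a satiety peptide, had 357, 324, 248 and 391.9 against 585, 391, 522 and 350, a log2 difference of -0.48 ± 0.17 (SE, adjusted p = 1, DESeq2). The summed level was 3755, 3483, 3637 and 10441 in DM and 5968 to 10043 in *Kdm5c*-KO. *Gh*, encoding growth hormone of the pituitary, had 29.5, 11.8, 0.99 and 99.1 against 125, 113, 523 and 86.7, the pituitary list had a median of -1.03, or -0.29 without *Kdm5c*-KO 3 and -1.93 without DM 1 and DM 3, and the hormone genes *Cga* and *Fshb* were at 0 in all 4 DM libraries. The part of hypothalamic and pituitary tissue in these values was not tested.

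The study followed 10 genes of neuroactive ligands and receptors. They came from the genes that the study selected as rescued in DM, more of them in the hippocampus than in the amygdala. The selection used libraries of these mice, so the direction of the 10 is not independent evidence. In the hippocampus, 7 of them had a value, 2 higher and 5 lower in DM, with a median of -1.11 and 0 called. Amygdala values follow. Of them 3 were higher and 7 lower in DM than in *Kdm5c*-KO, with a median of -0.27 and 0 called. Without *Kdm5c*-KO 3 the median was -0.13, with 4 higher and 6 lower. *Trh*, encoding thyrotropin-releasing hormone, had 452, 362, 453 and 762 in DM and 680, 874, 967 and 700 in *Kdm5c*-KO, with 532 ± 324 in WT. The other DM libraries lay below all *Kdm5c*-KO libraries and DM 4 lay among them, and the log2 difference was -0.67 ± 0.30 (SE, adjusted p = 1, DESeq2). *Pomc*, the precursor of melanocortin peptides and endorphin, had 82.7, 80.2, 131 and 106 against 105, 90.2, 449 and 169, with the high value in the library that was also high in *Gh*. *Adora2a*, the adenosine receptor of striatal neurons, had 3051, 4046, 3270 and 2003 against 3979.0, 1518.5, 276 and 3404.5, the low value again being *Kdm5c*-KO 3. *Adcy2*, an adenylyl cyclase, had 2752 to 2930 and 2450 to 2924, *Agt*, encoding angiotensinogen, had 3338 to 3749 and 2772 to 4755, and *Tacr1*, the substance P receptor, had 377 to 477 and 353 to 470. *Gabre*, a GABA-A subunit, had 258 to 341 and 300 to 700. *Mc3r*, *P2ry14* and *Lhb* had at most 71 counts in any of the 8 libraries.

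At the level of transcripts, 127 of 51338 differed (DESeq2 adjusted p under 0.1, 0.247%), 71 higher and 56 lower in DM, against 0 of 45592 with edgeR, where 1378 had unadjusted p under 0.05. Of the 127, 89 were at 0 in all 4 libraries of one group, and 24 belonged to a gene with unadjusted p under 0.05. Among 39476 transcripts with at least 3 counts in 7 of the 8 libraries, 1 was called when p was adjusted over these. It was *Adamts4*-202, a form of an aggrecan-cleaving protease gene, with 951, 647, 71.9 and 611 in DM and 16.8, 10.5, 9.46 and 11.4 in *Kdm5c*-KO, while the gene as a whole had 625 to 1234 and 562 to 992. The log2 difference of the transcript was 5.57 and that of the gene 0.28, so the assigned form differed more than the gene. Of *Adamts4*-202, *Kmt2a*-HET had 190 ± 349 and WT 9.56 ± 4.97, the *Kmt2a*-HET mean being set by 1 library at 713. Examples of the others, none of which was called among the 39476, were *Anp32e*-202, a histone chaperone form, at 2391 to 2615 against 2125 to 2221, *Npr1*-201 at 151 to 223 against 90.8 to 114, *Uhrf2*-201 at 598 to 680 against 756 to 887, and *Synpo*-211, of a spine apparatus gene, at 293 to 411 against 706 to 2041.

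The change with *Kmt2a* on the *Kdm5c*-null background was set against that on the WT background by the interaction term. It passed the threshold for 1 of 30355 genes (0.00329%), *Hmx2*, a homeobox gene of the hypothalamus, at -4.25 (log2, adjusted p = 0.043, DESeq2). edgeR called 0, with 665 at unadjusted p under 0.05, and *Hmx2* was not called without DM 1, without *Kdm5c*-KO 1, 2 or 3, without WT 3 or 4, or without any 1 of the *Kmt2a*-HET libraries. *Hmx2* had 6.89, 11.8, 0.99 and 14 normalised counts in DM, 26.1, 29.4, 40.6 and 10.6 in *Kdm5c*-KO, 24.0 ± 2.05 in *Kmt2a*-HET and 4.01 ± 3.86 in WT. The summed hypothalamic list was lowest in DM 1 to 3 and in 3 of the WT libraries, and the part of hypothalamic tissue in this value was not tested. For genes of the no-overlap set, the interaction was 1.11 for *Gbp9*, 2.33 for *Tgtp1* and -0.37 for *Uhrf2*, and *E2f6* had -0.43; none of these 4 passed.

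The difference between DM and *Kdm5c*-KO was also set against that in the hippocampus of the same mice. With mice unpaired, 0 of 32039 genes differed between regions (0%, DESeq2), 657 had unadjusted p under 0.05, and edgeR called 0. With the mouse as a block, 3 passed, *Tac1*, *2210418O10Rik* and *Gpr6*. Amygdala counts of *Tac1*, encoding substance P, were 1329.5 ± 161 in DM and 1211 ± 676 in *Kdm5c*-KO, and hippocampal counts were 32.3 ± 2.72 and 151 ± 171 (SD, n = 4 each). For *Gpr6*, a receptor of striatal neurons, they were 543.5 ± 144 and 422 ± 284.5, then 11.5 ± 2.41 and 56.3 ± 65.5. With the block the *Tac1* difference between regions was 2.05 ± 0.39 (log2, SE, adjusted p = 0.0048, DESeq2), and *Tac1* without it had an adjusted p of 1. *Tac1* and *Gpr6* belong to the striatal list. *2210418O10Rik*, which is not on it, had 87.3, 136, 184.5 and 99.4 in DM and 61.6, 56.9, 0 and 0 in *Kdm5c*-KO in amygdala. In hippocampus *2210418O10Rik* was at 0 in DM 1 to 3 and 6.48 in DM 4, against 47.1, 153, 59.2 and 74.1. In hippocampus *Kdm5c*-KO 1 held the highest values, 407 for *Tac1* and 153 for *Gpr6*, and in amygdala *Kdm5c*-KO 3 the lowest, 396 and 73.5.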

How the data were processed

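RNA was measured by poly(A)-primed, strand-specific sequencing with ERCC spike-in in 32 libraries of 16 mice. The authors deposited expected counts (estimated counts, partly fractional) per gene and per transcript, not normalised. The study's methods give STAR 2.5.3a alignment to mm10, removal of duplicates and featureCounts (Subread 1.5.0); how the authors made fractional counts from these is not given in the sources used here. Counts were rounded and IDs matched to GENCODE without version. The test was DESeq2 1.42.0 (Wald, 16 amygdala libraries, genotype as term, Benjamini-Hochberg adjusted p under 0.1), in R 4.3.3, checked on simulated data, with edgeR 4.0.16 as the alternative. Values printed per library are counts divided by DESeq2 size factors. Depth limits low genes: a floor of 3 counts corresponds to 0.119 to 0.156 CPM and covers counting error only. Members and lists were chosen with earlier results of these data known. Named genes were the targeted and called genes, 20 non-overlapping genes by smallest p (mean of at least 10), 8 leading *Kdm5c*-loss genes, 6 per list, the study's 10 genes, and called transcripts and interactions. By the labels, replicate numbers did not pair genotypes, while amygdala and hippocampus of a number within a genotype are the same mouse. Replicates differed by a chi-square per gene of at least 10.9, above sampling noise. Nothing says that DM and *Kdm5c*-KO mice came from separate litters.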

Additional observations from a re-analysis of the deposited data

Results flagged for a closer look

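Of 134 groups of 4 libraries examined, 7 had a library far from the other 3 by Dixon's test, which flags about 1 group in 20 by chance. *Kdm5c* was highest in *Kdm5c*-KO 3, at 1433.9 normalised counts against 1267.5 in the next library. *Uhrf2* was highest in the same library, at 991.7 against 871.2. *Rbm47* and *Abca4* were highest in DM 1, at 92.5 against 22.88 and at 573.7 against 210.9. The summed amygdala markers were lowest in *Kdm5c*-KO 1, at 19162.1, the summed hypothalamic genes highest in DM 4, at 10440.5, and the summed pituitary genes highest in *Kdm5c*-KO 3, at 1152.9. *Hmx2* differed by background in the interaction test, at -4.252 (log2, adjusted p = 0.0429, DESeq2). No explanation of these values was tested.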

How the results depend on the processing

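The count of genes called between DM and *Kdm5c*-KO, 1 in the reported fit, was 0 with edgeR's quasi-likelihood test (with and without a replicate block), with ERCC scaling and with the 8 libraries alone, 2 with no outlier filter, 3 without DM 1 and DM 3 together, 99 with a term for replicate 1 (82 with means under 10 in both groups), and 357 with the replicate block (319 with means under 10). Among the non-overlapping genes, *Npr1*, *Tgtp1*, *Uhrf2*, *Gm9780*, *Cpt1a*, *Lepr*, *Gbp9* and *Zfp97* were called with the block. The fit without DM 1 and DM 3 and the restricted transcript set were chosen after seeing the data. Leaving out 1 library gave 0 to 31 genes. *Mfrp* was not among those called without DM 1, DM 3 or *Kdm5c*-KO 2, 3 or 4, taken singly. Transcript calls, 127 as reported, were 0 with edgeR, 4072 with the replicate block, 1 among transcripts with at least 3 counts in 7 of 8 libraries, and 101 to 211 leaving out 1 library. The interaction, 1 gene as reported, gave 0 with edgeR (both fits), ERCC scaling or without DM 1 and DM 3, 91 with the replicate block, 26 with the replicate 1 term, and 0 to 68 leaving out 1 library, the 68 without WT 2. The region difference, 0 genes, gave 3 with the mouse as replicate block and 0 to 1 leaving out 1 mouse. The cause of these changes was not tested. Same-numbered DM and *Kdm5c*-KO libraries correlated at -0.05 to 0.29 in their deviations and 2 of 4 DM libraries correlated best with their own number. The 0.29 was DM 1 with *Kdm5c*-KO 1, and pairs of different number reached 0.21 at most. Whether libraries of replicate 1 share more than a number was not tested. Of 4772 values of named genes under alternatives 204 had the opposite sign, and 29 list medians moved while 446 did not by more than the replicate spread. The median of the *Kdm5c*-loss list, 0.0035, stayed between -0.0092 and 0.03 leaving out 1 DM or *Kdm5c*-KO library; WT and *Kmt2a*-HET libraries were not left out for it.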

Other observations

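Without DM 4, 31 genes were called. They included choroid plexus genes and others such as *Vcam1*, *mt-Nd4l*, *Cpt1a*, *Npr1*, *Tgtp1*, *Abcd2* and *Fkbp9*, all higher in DM. The genes lower in DM were *Ndn*, *Rian* and *Lenep*. *Rian*, an imprinted noncoding RNA, was at -0.35 (log2, adjusted p = 0.036, DESeq2). *Ndn*, which encodes necdin and is imprinted, was at a log2 difference of -0.89 (adjusted p = 0.034, DESeq2). *Ndn* had 5610, 9748, 4734 and 11812 normalised counts in DM 1 to 4 and 12288, 12091, 14286 and 10880 in *Kdm5c*-KO 1 to 4, so DM 4 alone lay within the *Kdm5c*-KO range. With all 8 libraries the difference was -0.64 ± 0.23 (log2, SE) and was not called. These genes were named after their values were seen, and DM 4 was also the DM library with the highest hypothalamic sum.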
